A study of Arabidopsis thaliana with 9 samples.

Results

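GSO1 (AT4G20140), SGN1 (AT1G61590) and FACT (AT5G63560) are genes of the endodermal barriers, the wall deposits that limit the flow of water and solutes between the root surface and the vascular cylinder. They were picked by name as genes of these barriers, with earlier results of these data known. All 3 had a row of their own among the 16746 rows tested, as did other barrier genes named below. Root transcript levels came from Col-0, the wild type, and from hcr1-1 and hcr1-2, mutant lines in the Col-0 ecotype that the labels describe only as mutants of HCR1 (HYDRAULIC CONDUCTIVITY OF ROOT 1, AT3G24715). Its product belongs to the Raf-like protein kinases and influences how easily water passes through roots. Oxygen shortage (pO2 11.1 ± 1.1%) and a full potassium supply in hydroponic solution were common to all 3 genotypes, which were harvested at an age of 21 days, so the comparisons are between genotypes within hypoxia. Each genotype had 3 arrays, 1 per pool of 5 plants, which the labels call biological replicates. The labels do not place the lesion of either line.

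The endodermis is the cell layer around the vascular cylinder of the root. Its cells first lay down the Casparian strip, a lignin ring that seals the wall space between neighbouring cells, and later coat themselves with suberin, a polyester of fatty acids, alcohols and phenolics. GSO1, also called SGN3, is a leucine-rich repeat receptor kinase that senses small sulfated peptides (the CIF peptides) leaking out of the vascular cylinder through an unfinished strip. SGN1 is a receptor-like cytoplasmic kinase that relays this signal inside the endodermal cell to the NADPH oxidase behind strip lignification. FACT is a BAHD acyltransferase that joins caffeic acid to long-chain fatty alcohols, making the alkyl caffeates found with root suberin.

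The transcript of HCR1 served as the check of the labels. Its log2 RMA signal averaged 4.78 ± 0.16 (SD, n = 3) for Col-0, 3.02 ± 0.58 for hcr1-1 and 4.30 ± 0.069 for hcr1-2. Every mutant array was lower than every Col-0 array, although neither line passed by limma (adjusted p 0.13 and 0.903). As a background, all 3 hcr1-1 arrays lay below Col-0 in 4.02% of all rows, and all 3 hcr1-2 arrays in 4.34%. In hcr1-1, HCR1 ranked 1 by limma p, with a signal 29.6% of that of Col-0 (interval 20.9% to 41.9%). In hcr1-2 it ranked 1087, at 71.9% of Col-0, with an interval (50.8% to 101.7%) that includes no difference. The check of the labels was therefore weak for hcr1-2. Array medians over all rows ran from 3.41 to 3.48. The weight limma estimated for hcr1-2 replicate 1 was 0.47, and the other arrays had weights between 0.79 and 1.47. None of the 8 listed endodermis markers (the CASP proteins, MYB36, SCR and ESB1) was on a tested row, so the amount of endodermis in each sample could not be read. Each sample was bulk root RNA, in which fewer cells of a type and less RNA per cell cannot be told apart.

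GSO1, the receptor, read lowest in Col-0 and highest in hcr1-2. In replicates 1 to 3, the Col-0 arrays had a log2 signal of 5.56, 5.72 and 5.68, the hcr1-1 arrays one of 5.57, 5.96 and 5.99, and the hcr1-2 arrays one of 5.93, 6.13 and 5.92. All 3 hcr1-2 arrays lay above all 3 Col-0 arrays, whereas hcr1-1 replicate 1 lay inside the Col-0 range and the other hcr1-1 arrays lay above it. Col-0 averaged 5.65 ± 0.083, hcr1-1 averaged 5.84 ± 0.24 and hcr1-2 averaged 5.99 ± 0.12 (SD, n = 3 each). The fitted difference from Col-0 was 0.34 log2 units in hcr1-2 (SE 0.14, 95% interval 0.045 to 0.64), a signal 1.27 times that of Col-0. In hcr1-1 it was 0.19 (SE 0.14, interval -0.11 to 0.48), or 1.14 times Col-0.

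By limma the GSO1 difference in hcr1-2 had an unadjusted p of 0.0275 and an adjusted p of 0.903 over all 16746 rows, so it did not pass. At an unadjusted p under 0.05, 3.05% of all rows were higher in hcr1-2, and 6.1% of all rows had 3 hcr1-2 arrays above all Col-0 arrays, which is the background for this separation. Averaged over both alleles GSO1 was higher by 0.26 (SE 0.12, interval 0.0075 to 0.52, unadjusted p 0.0446, adjusted p 0.998), in a comparison where 2.08% of rows were higher at an unadjusted p under 0.05. The exact two-sided permutation test gave p = 0.1 for hcr1-2, the smallest that 3 against 3 arrays allow, p = 0.3 for hcr1-1 and p = 0.0952 for the 6 mutant arrays, where 0.0119 is the smallest possible. Leaving out hcr1-2 replicate 2 put the hcr1-2 difference at 0.27 with an unadjusted p of 0.1, and leaving out Col-0 replicate 1 put it at 0.30 with an unadjusted p of 0.0874. The hcr1-1 difference moved both ways. It was 0.32 without hcr1-1 replicate 1 (unadjusted p 0.0273, adjusted p 1) and 0.11 without hcr1-1 replicate 3 (unadjusted p 0.475). For both alleles averaged, the unadjusted p was under 0.05 in 8 of 16 alternatives and ran from 0.0081 without hcr1-1 replicate 1 to 0.149 without Col-0 replicate 1. The gene model of GSO1 shares 337 of its 4350 bases with that of AT4G20150 in TAIR10.1, and the row of AT4G20150 differed from Col-0 by -0.02 when both alleles were averaged.

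**Figure D1:**
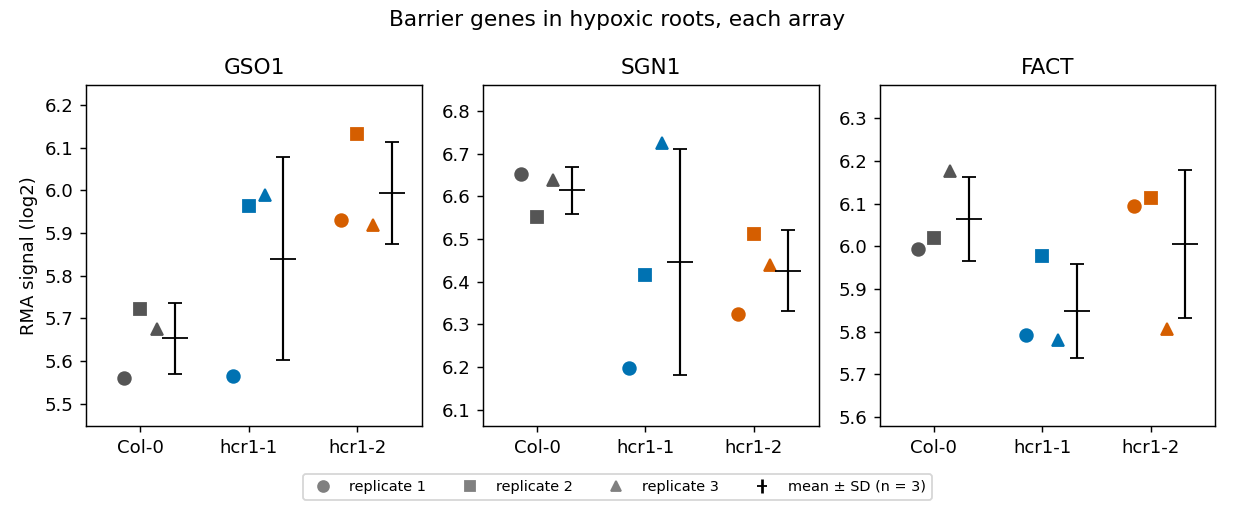
Log2 RMA signal of GSO1, SGN1 and FACT in each of the 9 arrays (y axis), by genotype (x axis), with symbols for the replicate number and a black bar for the mean ± SD of 3 arrays. The hcr1-2 arrays of GSO1 (5.92 to 6.13) lie above the Col-0 arrays (5.56 to 5.72), the hcr1-2 arrays of SGN1 lie below Col-0, and the hcr1-1 arrays of FACT lie below Col-0. The y axes cover the same span in the 3 panels but not the same levels.

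SGN1, the kinase that relays the signal, read highest in Col-0 on average, with close means in the mutants. Its log2 signal in replicates 1 to 3 was 6.65, 6.55 and 6.64 for Col-0, 6.20, 6.42 and 6.72 for hcr1-1, and 6.32, 6.51 and 6.44 for hcr1-2. The 3 hcr1-2 arrays lay below all Col-0 arrays, as did 2 of the hcr1-1 arrays, while hcr1-1 replicate 3 was the highest of all 9. Averages were 6.61 ± 0.055 for Col-0, 6.45 ± 0.26 for hcr1-1 and 6.43 ± 0.095 for hcr1-2. The difference from Col-0 was -0.17 (SE 0.14, interval -0.47 to 0.13) in hcr1-1, -0.19 (SE 0.14, interval -0.49 to 0.11) in hcr1-2 and -0.18 (SE 0.12, interval -0.44 to 0.081) in the mean of both alleles.

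None of the SGN1 differences passed by limma, where the unadjusted p was 0.244, 0.193 and 0.159 and the adjusted p 1, 0.936 and 0.998 in that order. All 3 hcr1-2 arrays were below Col-0 in 4.34% of all rows. Exact permutation of the arrays, two-sided, gave p = 0.4 for hcr1-1, p = 0.1 for hcr1-2 and p = 0.143 over the 6 mutant arrays. Without hcr1-1 replicate 3 the difference in hcr1-1 was -0.31 with an unadjusted p of 0.0375, and that of the mean of both alleles was -0.25 with an unadjusted p of 0.0372, while the adjusted p of these 2 differences was 0.925 or above in each of the alternatives. Without hcr1-1 replicate 1 they shrank to -0.04 (unadjusted p 0.751) and -0.12 (unadjusted p 0.308). The interval allows a signal, averaged over both alleles, from 73.8% to 106% of Col-0.

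FACT, the acyltransferase of suberin-linked waxes, read lowest in hcr1-1. Replicates 1 to 3 gave a log2 signal of 5.995, 6.02 and 6.18 for Col-0, of 5.79, 5.98 and 5.78 for hcr1-1, and of 6.10, 6.11 and 5.81 for hcr1-2. The 3 hcr1-1 arrays lay below all Col-0 arrays, but by a gap far smaller than the spread within either genotype, since hcr1-1 replicate 2 nearly met Col-0 replicate 1. In hcr1-2, 2 arrays lay inside the Col-0 range and replicate 3 lay below it. The averages were 6.06 ± 0.099 for Col-0, 5.85 ± 0.11 for hcr1-1 and 6.01 ± 0.17 for hcr1-2.

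The FACT difference from Col-0 was -0.21 (SE 0.12, interval -0.48 to 0.056) in hcr1-1, with an unadjusted limma p of 0.109 and an adjusted p of 1. For hcr1-2 the difference was -0.06 (SE 0.12, interval -0.33 to 0.21, adjusted p 0.967), and averaged over both alleles -0.14 (SE 0.11, interval -0.37 to 0.097, adjusted p 0.998). All 3 hcr1-1 arrays were below Col-0 in 4.02% of all rows. Two-sided exact permutation gave p = 0.1 for hcr1-1, p = 0.8 for hcr1-2 and p = 0.238 over the 6 mutant arrays. The small difference in hcr1-2 turned to 0.041 without hcr1-2 replicate 3, was -0.0020 without Col-0 replicate 3 and reached -0.11 without hcr1-2 replicate 2, -0.10 without hcr1-2 replicate 1 and -0.093 without Col-0 replicate 1. That of both alleles averaged was -0.08 without Col-0 replicate 3 and -0.09 without hcr1-2 replicate 3.

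Between the mutant lines, GSO1 was 0.15 higher in hcr1-2 than in hcr1-1 (SE 0.14, interval -0.14 to 0.45, limma adjusted p 0.935), and FACT was 0.16 higher (SE 0.12, interval -0.11 to 0.43, adjusted p 0.923). SGN1 differed by -0.02 (SE 0.14, interval -0.32 to 0.28, adjusted p 0.995). No member was shown to differ between the alleles, and these intervals still allow differences of about the size seen against Col-0. The GSO1 difference was 0.02 without hcr1-1 replicate 1 and 0.09 without hcr1-2 replicate 2, and that of FACT was 0.26 without hcr1-2 replicate 3 and 0.10 without hcr1-2 replicate 2. GSO1 had the order Col-0, hcr1-1, hcr1-2 from low to high, in which neither neighbouring pair differed by the test. SGN1 had the order hcr1-2, hcr1-1, Col-0 and FACT the order hcr1-1, hcr1-2, Col-0, with the same outcome for each neighbouring pair.

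**Figure D2:**
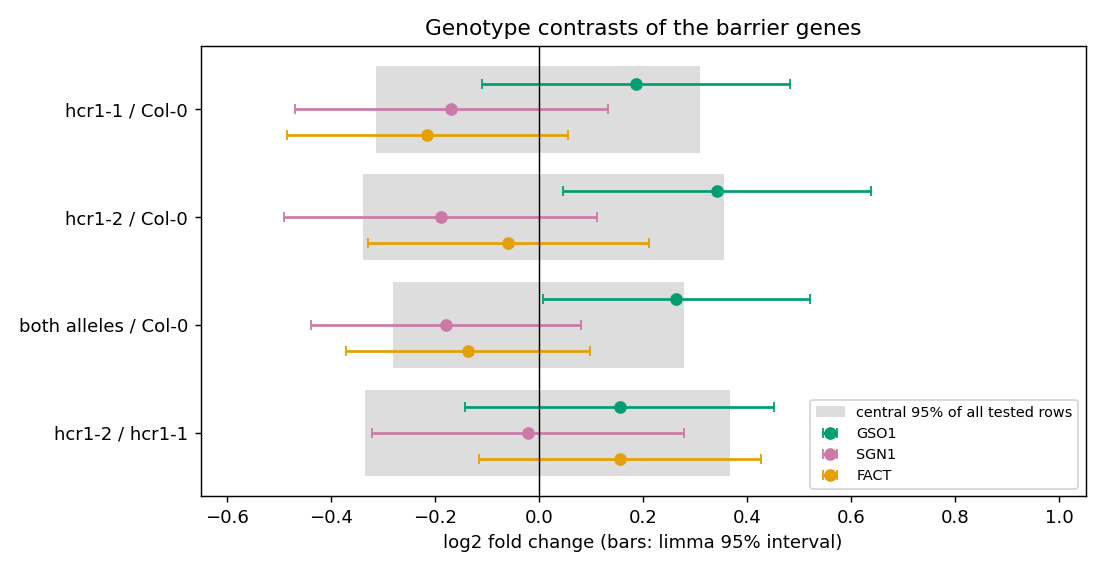
Log2 fold change of each gene in 4 comparisons (points, with limma 95% intervals), over the central 95% of the log2 fold changes of all 16746 rows (grey). Of the 12 intervals, those of GSO1 for hcr1-2 and for both alleles averaged leave out 0, before any adjustment for the number of rows tested. Every point lies inside the grey band, whose upper end is 0.36 for hcr1-2 and 0.28 for both alleles averaged.

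By limma with Benjamini-Hochberg adjustment, 0% of the 16746 rows passed in each of the 4 comparisons, so all other rows share the members' lack of a call. At an unadjusted p under 0.05 there were 542 rows in hcr1-1, 904 in hcr1-2, 624 in the mean of both alleles and 893 between the alleles. GSO1 ranked 487 by p in hcr1-2 and 535 when both alleles were averaged. The best rank of SGN1 in a comparison with Col-0 was 2313, in the mean of both alleles, and that of FACT was 1301, in hcr1-1. The SD within genotypes was 0.16 for GSO1, 0.17 for SGN1 and 0.13 for FACT, each under the median of 0.18 over all rows. The comparisons with Col-0 share the same 3 Col-0 arrays.

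The steps around GSO1 and SGN1 were read from a list of 26 Casparian strip genes, of which 9 were on tested rows. Besides the members these were 4 loci entered in the list as precursors of CIF-type peptides and 3 entered as peroxidases. The CASP scaffold proteins, ESB1, the NADPH oxidases RBOHD and RBOHF, MYB36 and the second receptor GSO2 were not on tested rows. Of the 9, 0 passed in any comparison with Col-0 by limma, 5 were higher and 4 lower in the mean of both alleles, and the median was 0.01 beside 0.01 over all rows. At an unadjusted p under 0.05 the only one was GSO1, for hcr1-2 and for the averaged alleles. Out of all 16746 rows, 904 had such a p for hcr1-2 and 624 for the averaged alleles. Whether 1 of 9 exceeds this background was not tested.

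AT4G34600, of the peptide precursor loci, averaged 7.27 for Col-0, 7.27 for hcr1-1 and 7.34 for hcr1-2, and stood at 0.03 (SE 0.10) in the mean of both alleles. That interval ran from -0.18 to 0.25. AT2G16385 stood at 0.01 (SE 0.12), AT5G04030 at -0.15 (SE 0.16) and AT1G28375 at 0.05 (SE 0.14), on rows with means of 2.83, 2.90 and 1.00, which lie below the array medians. None of the 4 loci had arrays of a mutant line clear of Col-0.

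The peroxidase loci, whose products polymerise lignin, were read the same way. AT4G11290 averaged 7.96 for Col-0, 7.995 for hcr1-1 and 8.06 for hcr1-2, a difference of 0.10 (SE 0.10) in hcr1-2, where its 3 arrays lay just above those of Col-0. PRX72 (AT5G66390) stood at -0.13 (SE 0.16) in hcr1-1 and 0.12 (SE 0.16) in hcr1-2, and AT1G44970 at -0.22 (SE 0.15) and -0.06 (SE 0.15). Of the 9 Casparian strip genes, 2 (GSO1 and AT4G11290) had all hcr1-2 arrays above Col-0, where the background is 6.1%, and 1 (SGN1) had them all below, where it is 4.34%.

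The suberin list had 26 genes, of which FACT and AT2G48130, entered as a lipid transfer protein, were on tested rows. AT2G48130 averaged 6.72 for Col-0, 6.59 for hcr1-1 and 6.75 for hcr1-2. It differed from Col-0 by -0.13 (SE 0.14) in hcr1-1 and by 0.03 (SE 0.14) in hcr1-2. Both genes were lower than Col-0 in hcr1-1 and closer to it in hcr1-2, and neither passed by limma. The fatty acid hydroxylases, reductases and elongases, the glycerol acyltransferases, the ABCG exporters and the MYB regulators of suberin were not on tested rows, so the suberin pathway was read from these 2 genes alone.

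**Figure D3:**
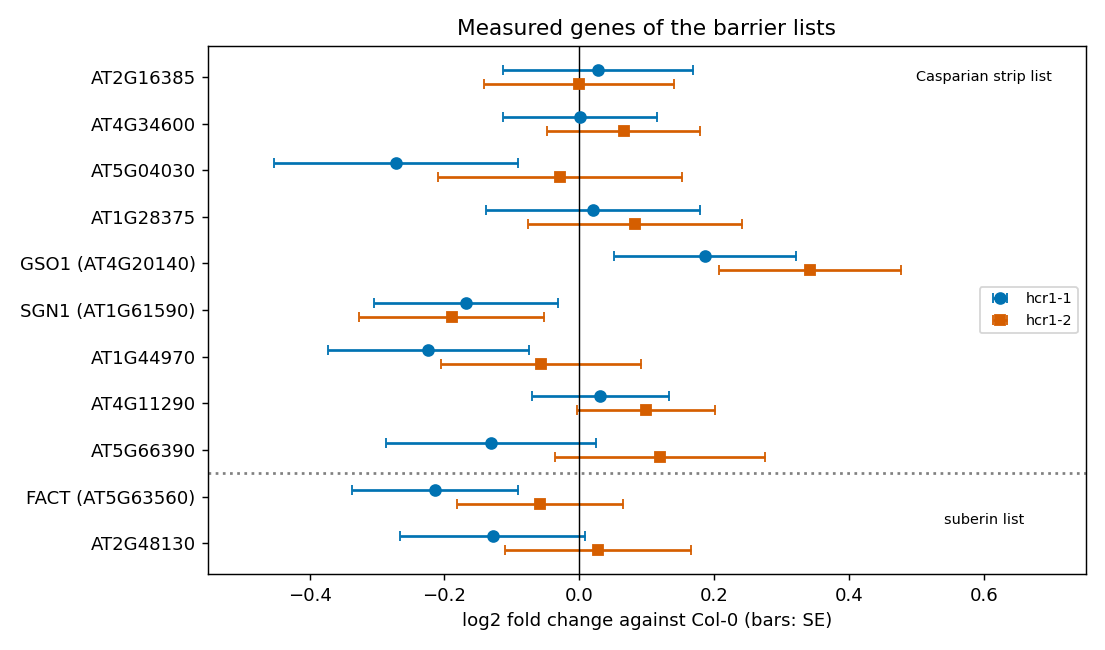
Log2 fold change against Col-0 of the 11 measured genes of the Casparian strip and suberin lists (points, with SE), in hcr1-1 (circles) and hcr1-2 (squares). GSO1 is the only gene above 0.15 in either line, while SGN1 lies at -0.17 and -0.19. In hcr1-1, AT5G04030 (-0.27), AT1G44970 (-0.22) and FACT (-0.21) lie lower than SGN1.

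The relatives of each member were taken as a wider frame. Of 36 listed leucine-rich repeat receptor kinases and co-receptors, the family of GSO1, 10 were measured, 0 passed by limma, and 6 were higher and 4 lower when both alleles were averaged. Their median was 0.06, beside 0.01 over all rows. Their values ran from -0.19 to the 0.26 of GSO1. Next to it stood PXL1 (AT1G08590), a receptor kinase related to the vascular peptide receptor PXY, at 0.20 (SE 0.13), and its second row gave 0.20 too.

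Of 37 listed PBS1-like cytoplasmic kinases, the family of SGN1, 24 were measured and 0 passed. In the mean of both alleles 11 were higher and 13 lower, with a median of -0.04, and SGN1 at -0.18 lay inside their range of -0.35 to 0.28. The widest differences were those of AT4G13190 at -0.35 (SE 0.11, unadjusted limma p 0.00963), on a row with a mean of 2.36, and of AT5G56460 at -0.32 (SE 0.14, unadjusted limma p 0.044). Both had an adjusted p of 0.998.

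Of 17 listed BAHD acyltransferases, the family of FACT, 9 were measured and 0 passed, with 5 higher, 4 lower and a median of 0.04 in the mean of both alleles. The largest differences on the rows used were -0.19 (SE 0.13) for AT1G03495 and 0.17 (SE 0.11) for AT2G25150, both on rows with means below the array medians. A dimmer row of AT1G03940, also on the list, stood at -0.36 (unadjusted limma p 0.0652). The other rows of AT1G03940, among them the one used, stood at 0.06 and 0.07. HCT (AT5G48930), which feeds caffeoyl units into lignin and was the only measured gene of 16 on the phenylpropanoid list, stood at 0.04 (SE 0.11).

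**Figure D4:**
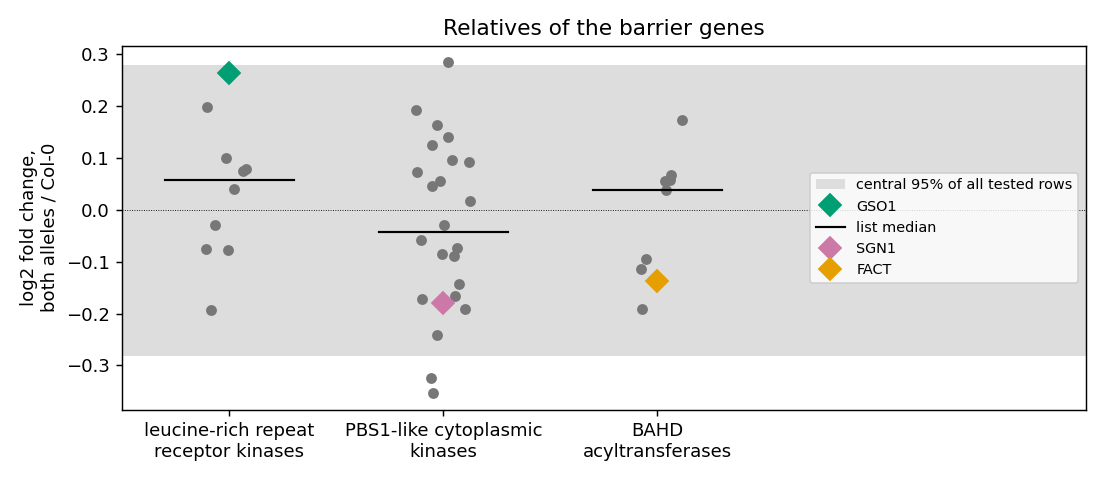
Log2 fold change against Col-0, averaged over both alleles (y axis), of the measured relatives of GSO1 (10 receptor kinases), SGN1 (24 cytoplasmic kinases) and FACT (9 acyltransferases), with the members as diamonds, list medians as lines and the central 95% of all tested rows in grey. GSO1 tops its list at 0.26, inside the grey band, and SGN1 and FACT lie among their relatives.

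No correlation among the 3 members was detected over the 9 arrays. Pearson's r was 0.063 for GSO1 and SGN1 (exact permutation p = 0.871, Spearman's rho 0.00 with exact p = 1), 0.064 for GSO1 and FACT (exact p = 0.872, rho 0.00 with exact p = 1), and 0.18 for SGN1 and FACT (exact p = 0.647, rho 0.05 with exact p = 0.912). Without the 2 arrays farthest from the median of the first gene, these were -0.23, -0.27 and 0.25. Taken as deviations from the genotype means, GSO1 and SGN1 had an r of 0.73, GSO1 and FACT one of 0.40, and SGN1 and FACT one of -0.07. For GSO1 and SGN1 this did not hold in each genotype. Among the hcr1-1 arrays replicate 1 was lowest in both genes and replicate 3 highest in both. Among the hcr1-2 arrays replicate 2 was highest in both, but the lowest was replicate 3 for GSO1 and replicate 1 for SGN1. In Col-0, by contrast, replicate 1 had the lowest GSO1 and the highest SGN1. No p was computed for these deviations, so a relation within genotypes was not tested.

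The difference between GSO1 and SGN1 within an array was looked at after their values were seen, so it is given as a description with no test. Relative to its Col-0 mean, it was (log2, replicates 1 to 3) -0.13, 0.13 and 0.00 for Col-0, 0.33, 0.51 and 0.23 for hcr1-1, and 0.57, 0.58 and 0.44 for hcr1-2. Each of the 6 mutant arrays was above each Col-0 array, with means of 0.53 ± 0.077 for hcr1-2 and 0.35 ± 0.14 for hcr1-1 (SD, n = 3). GSO1 separated in this way from 6.43% of the other 16745 rows. For the difference between GSO1 and FACT the mutant arrays lay above Col-0 as well, with 0.18 to 0.62 in hcr1-1 and 0.25 to 0.52 in hcr1-2 against -0.09 to 0.11 in Col-0. The 2 mutant lines overlapped in both of these differences. That between SGN1 and FACT overlapped between the genotypes. A shift of a whole array cancels in such a difference, whereas the direction follows from GSO1 being higher and the others lower in the mutants.

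**Figure D5:**
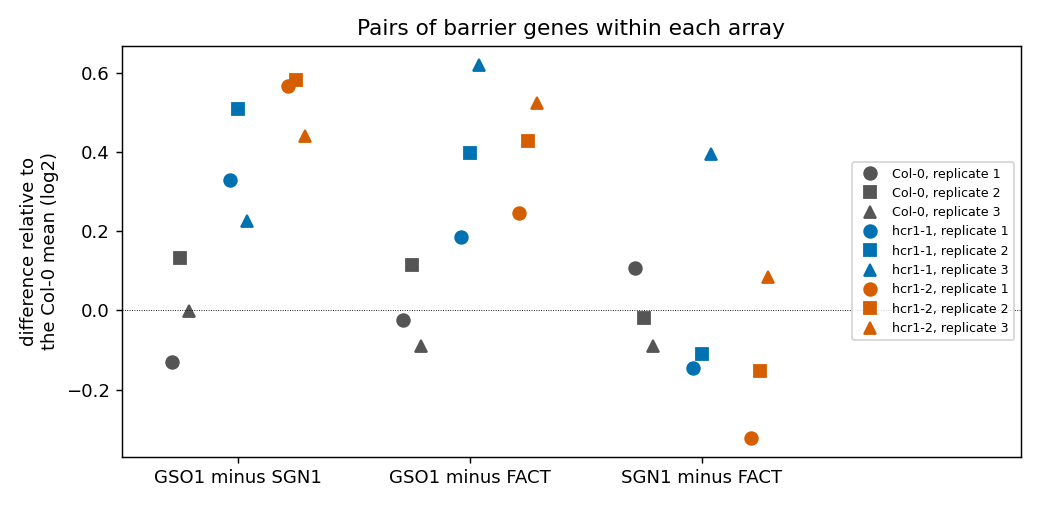
Differences between pairs of the 3 genes within each array (y axis, log2, relative to the Col-0 mean of the same pair), with symbols for genotype and replicate. For GSO1 minus SGN1 and GSO1 minus FACT the 6 mutant arrays (0.18 to 0.62) lie above the Col-0 arrays (at most 0.13), and for SGN1 minus FACT they overlap.

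The core hypoxia genes, which roots switch on when oxygen runs short, varied widely between the pools. The 13 used here were named in an earlier description, partly for their values. That all 13 were lower than Col-0 on average in both mutant lines was therefore partly set by the choice. Their median was -0.56 in hcr1-1 and -1.05 in hcr1-2, and none passed by limma. Because of this spread and these lower averages, the level of the core hypoxia genes is given beside the members. The array mean of the 13, relative to Col-0, was 0.23, -0.67 and 0.44 for Col-0, -0.11, -1.51 and -0.08 for hcr1-1, and -1.46, -1.37 and -0.69 for hcr1-2. In hcr1-1, replicates 1 and 3 lay inside the Col-0 range, so its lower average came from replicate 2. The hcr1-2 arrays lay below that range, replicate 3 only just. GSO1 ran against this mean, with a Pearson r of -0.72 over the 9 arrays (exact permutation p = 0.036, adjusted p = 0.216 over 6 relations, Spearman's rho -0.60 with exact p = 0.0968 and adjusted p = 0.29). Since the 13 genes, named partly for their values, were lower on average in both lines, a gene higher in the mutants tends to run against them. Permuting all 9 arrays does not separate such a relation from the genotype difference. Without the 2 arrays farthest from the GSO1 median r was -0.61, and for deviations from the genotype means it was -0.45. For SGN1 r was 0.46 (exact p = 0.215, adjusted p = 0.646, rho 0.65 with exact p = 0.0666) and for FACT -0.19 (exact p = 0.619, adjusted p = 0.872, rho -0.02 with exact p = 0.982). Without the farthest 2 arrays these were 0.86 and 0.11, and for deviations from the genotype means 0.21 and -0.53, so that FACT had the widest of the 3 within genotypes. None of the 6 relations passed after adjustment, and the part of the hypoxia level in the GSO1 difference was not tested.

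Markers of other cell types were few. The dividing cell gene AUR2, a mitotic kinase, stood at 0.39 (SE 0.14) in hcr1-2 and 0.17 (SE 0.14) in hcr1-1, with Col-0, hcr1-1 and hcr1-2 means of 3.80, 3.97 and 4.19 in the same order as GSO1, while its relative AUR1 stood at -0.01 and -0.08. The xylem gene GUT2 stood at -0.16 (SE 0.11) in hcr1-2 and -0.25 (SE 0.11) in hcr1-1. For root hairs, EXPA7 stood at 0.01 and EXPA18 at 0.37 in hcr1-2, and the shoot genes RCA and LHCB4.1 at -0.11 and 0.11. The measured markers were 2 of 4 for dividing cells, 1 of 11 for xylem, 2 of 5 for root hairs, 2 of 5 for shoot and 0 of 4 for phloem, and none passed by limma. Their part in the member differences was not tested.

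The genes whose pattern over the 9 arrays was most like that of each member were named from the 8372 other rows at or above the median brightness, by Pearson's r and with no p. For GSO1 they were AT4G27340 (r = 0.95), AT3G09760 (0.94), AT4G29110 (0.93), AT2G23960 (0.93) and AT2G39210 (0.92), and 124 rows had an r above 0.8. For SGN1 they were AT3G17410 (0.93), AT1G10050 (0.92), AT4G05150 (0.90), bZIP58 (AT1G13600, 0.90), a transcription factor of the basic leucine zipper family, and AT4G01280 (0.89), among 58 rows above 0.8. For FACT they were AT5G62865 (0.94), AT5G50361 (0.91), AT1G43980 (0.90), AT1G03210 (0.87) and AT1G14642 (0.86), among 18. None of these 15 is on the barrier lists, and with 9 arrays many rows reach such values.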

How the data were processed

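Root RNA of 9 samples was hybridised to Affymetrix Arabidopsis Gene 1.1 ST array strips, with 100 ng of RNA per array. The authors deposited log2 values, for which the submitters' processing notes name Affymetrix Expression Console and RMA, a method of background subtraction, quantile scaling between arrays and summary over each row's probes. Versions, settings and the genome build are not given in the sources used here. RMA makes array totals alike and can blur a change in a short stretch of a transcript. Detection of single rows was not judged, and precision is set by the number of arrays. Levels of different rows are not compared.

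Of 38408 rows, 16746 were paired with exactly 1 gene and tested, 758 were paired with several and 20904 were not listed in the annotation. Names were updated through Entrez numbers with a RefSeq table of TAIR10.1, which matched 16601 of the tested rows. A gene with several rows is represented by the row with the highest mean. Where that table has no name, only the locus is printed, and its role is that under which the list holds it. The name SGN1 is that of the rule.

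Groups and replicate numbers come from the titles. limma 3.58.1 in R 4.3.3 (lmFit on group means, contrasts, eBayes) was fitted over all 9 arrays and all tested rows, two-sided, with Benjamini-Hochberg adjustment over the 16746 rows at 0.05. Members and HCR1 were compared by exact permutation tests too. The fit was tested on simulated data with known changes. Members, lists and tests were chosen with earlier results of these data known, and the 13 core hypoxia genes are those named in an earlier description, partly for their values. Named were the members, HCR1, every measured gene of the Casparian strip and suberin lists, the 2 widest differences (both alleles averaged) of each other list, and the 5 most alike rows per member. AT4G20150 was added for its overlap with GSO1, and the differences between members after their values were seen. The alternatives were fits of the compared genotypes alone, the replicate number as a block, other normalizations, leaving out dim rows, testing all rows, other variance models, array weights, an adjusted p of 0.1 and leaving out each array.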

Additional observations from a re-analysis of the deposited data

How the results depend on the processing

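No member passed by limma under any alternative, with a lowest adjusted p of 0.553, for GSO1 in hcr1-2. Over the alternatives the GSO1 difference in hcr1-2 ran from 0.27 to 0.39 and had an unadjusted p under 0.05 in 15 of 17. The exceptions were the fits without Col-0 replicate 1 and without hcr1-2 replicate 2, both arrays of this comparison. Leaving out an hcr1-1 array cannot move this estimate, and several other fits keep it at 0.34, so the 15 are not separate checks. For both alleles averaged, the unadjusted p was under 0.05 in 8 of 16. Signs held except for 2 small differences. SGN1 between the alleles (-0.02) was 0.011 after quantile normalization and 0.0014 with array weights, and ran from -0.15 to 0.12 when each array was left out. FACT in hcr1-2 (-0.06) ran from -0.11 to 0.041 when each array was left out. The count of rows called in hcr1-1 was 1 with dim rows left out and 1 with trended and robust variances, and 0 to 1 when each array was left out. For the mean of both alleles that range was 0 to 2. The rises among these left-out arrays came without hcr1-1 replicate 3. The cause was not tested. An adjusted p of 0.1 changed no count.

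Same-numbered arrays of different genotypes had correlations of their deviations from -0.19 to 0.16, with 2 of 9 pairs over 0.1, so the numbers were not taken to pair the samples. With the replicate block the GSO1 difference in hcr1-2 was 0.34, with an adjusted p of 0.825, and the count of calls was 0 in each comparison. The fit of the compared genotypes alone does not exist for the mean of both alleles, which uses all 3. The endodermis itself was not measured beyond the genes named, and pools of whole roots at 3 arrays a genotype leave a half-width of about 0.31 on a log2 fold change (the median over rows).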
